A study of Mus musculus with 12 samples.

Results

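The cells described here are the enteric neurons of the mouse intestine that carried RNA for the calcium-binding protein calretinin (Calb2) but little for the peptide precursors Tac1 and Penk. They were chosen by their own UMI counts, a UMI (unique molecular identifier) being 1 counted RNA molecule. A well of a CD49b- plate was kept when it had at least 1000 UMIs, at least 500 genes and less than 20% mitochondrial UMIs. A kept well was a Calb2 well when it held at most 1 Nos1 UMI, fewer than 3 UMIs of Calcb and Scgn together, fewer than 10 UMIs of Tac1 and Penk together, and at least 3 Calb2 UMIs. This rule took 133 wells, which is 133 of the 528 wells retained from the 6 CD49b- plates, of 964 retained in the whole series and of 1150 in the deposited table. The other 395 retained CD49b- wells were 254 Nos1 wells, 17 Calcb/Scgn wells, 7 wells with fewer than 3 Calb2 UMIs and the Tac1/Penk wells, which had at least 10 UMIs of the 2 precursors together (57 wells with Calb2 and 60 without).

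The series profiled single sorted cells from the longitudinal muscle with its myenteric plexus (LMMP), from C57BL/6 mice carrying the Dclk1-tdTom reporter, sorted as tdTom+ and split by the surface integrin CD49b into CD49b- cells, which the labels call neuronal, and CD49b+ cells. The irradiated group was given 3 mg tamoxifen at 8 weeks of age (replicate 1) or 9 weeks (replicates 2 and 3), received 10.5 Gy 7 days later and was collected 3 days after that, which is 10 days after tamoxifen. The homeostasis group was given the same tamoxifen at 8 weeks (replicates 1 and 3) or 9 weeks (replicate 2), was not irradiated, and was likewise collected 10 days after tamoxifen. Each group had 3 CD49b- plates of about 96 wells, and each plate held cells pooled from 2 animals, which makes 6 per treatment, and no well could be traced to its animal. All groups carried the reporter and received tamoxifen, and cells reached a plate only through a reporter named for Dclk1.

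Calretinin buffers calcium in the cytoplasm of many excitatory neurons. In the myenteric plexus of the mouse it is a classical marker of cholinergic neurons, the class that releases acetylcholine onto muscle and onto other neurons. Acetylcholine is made by choline acetyltransferase (Chat), loaded into vesicles by the transporter Slc18a3, and its precursor choline is taken back up by Slc5a7. Many cholinergic motor neurons also release tachykinins, made from Tac1, and enkephalins, made from Penk, whereas inhibitory motor neurons use nitric oxide, made by Nos1, and the peptide Vip.

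The values that placed the wells are given as a description only. Calb2 had a median of 19 UMIs per Calb2 well, with 4 in the lowest and 65 in the highest. Tac1 and Penk together had a median of 3 UMIs, from 0 to 9, and 8 wells had none; 92 wells had no Penk UMI, whereas only 10 had no Tac1 UMI. The bound on Tac1 and Penk did not fall at a gap in the counts. Just inside it lay 14 wells with 8 or 9 UMIs and just outside it 11 wells with 10 to 12 UMIs that met every other condition, and a further 9 wells had 13 to 19, 24 had 20 to 49 and 13 had 50 or more. Along this series the median total UMIs of the wells went up, with 5308 in wells at 0, 6543 in wells at 8 or 9, 6847 in wells at 10 to 12 and 10934 in wells at 50 or more. The lower bound on Calb2 was met narrowly by 3 wells with 3 or 4 UMIs and missed by 2 wells with 1 or 2 UMIs and by 5 wells with 0. The bound on Nos1 separated 37 wells with 1 UMI from 7 wells with 2, 4 wells with 3 to 9 and 14 wells with 10 or more.

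**Figure D1:**
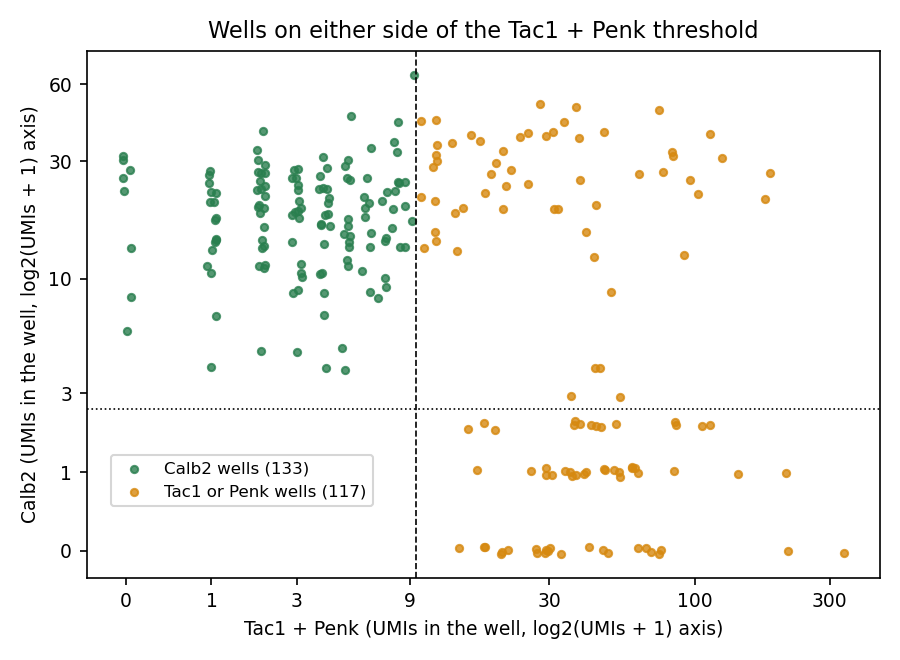
UMIs of Tac1 and Penk together (horizontal) and of Calb2 (vertical) in each of the 133 Calb2 wells and in each Tac1/Penk well, on log2 axes of the count plus 1, with lines at the bounds of the rule. The Calb2 wells and the Calb2-bearing Tac1/Penk wells form 1 continuous cloud across the bound of 10 UMIs, while 60 Tac1/Penk wells lie under 3 Calb2 UMIs.

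Calb2 wells were shallower than Tac1/Penk and Nos1 wells. The rule sets upper bounds on raw UMIs, which a shallow well meets more easily, and its part in this depth was not tested. Their median was 5499 UMIs and 2765 genes per well (range 1604 to 9765 UMIs), against 8287 UMIs in Tac1/Penk wells, 7740 in Nos1 wells and 2462 in CD49b+ wells. The 6 CD49b- plates held 543087 to 747272 UMIs each. Of the 11 listed pan-neuronal genes, all but Uchl1 were found in Calb2 wells, with a summed level of 8246 to 8520 CPM (UMIs per 1000000 UMIs of a sum) on the irradiated plates and 8391 to 9004 CPM on the homeostasis plates. Several lineage-defining genes of other cells were at 0, among them Sox10, Gfap and Erbb3 (glia), Myh11 and Des (smooth muscle), Kit and Ano1 (interstitial cells of Cajal), Pdgfra and Col3a1 (fibroblasts) and Epcam (epithelium). Of 14 listed glial genes, however, 8 had UMIs, S100b, Cryab, Sparc and Gpr37l1 among them. The glial list summed to 1080 to 1165 CPM on the irradiated and 930 to 1288 CPM on the homeostasis plates. Of 8 listed epithelial genes 2 had UMIs, summing to 323 to 388 CPM on the irradiated and 227 to 348 CPM on the homeostasis plates. Of the other lists, 4 of 8 smooth muscle, 5 of 8 fibroblast, 4 of 5 mesothelial, 2 of 7 endothelial, 1 of 9 macrophage and 1 of 7 lymphocyte genes had any UMI. Of 6 listed genes of interstitial cells of Cajal 1 had UMIs, Etv1. The fibroblast list summed to 0 to 69.4 CPM on the irradiated and 0 to 16.9 CPM on the homeostasis plates. No CD49b+ well met the rule, and 0 of the 60 to 84 retained wells of a CD49b+ plate allows a share of up to 3.57% to 5.0%. Dclk1 itself was at 114.2, 164, 121.5 CPM on the irradiated and 129, 113.6, 160 CPM on the homeostasis plates and was seen in 64 of the 133 wells; Itga2, which encodes CD49b, had 0 UMIs.

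Below, a level is the CPM of the summed UMIs of all wells of 1 kind on 1 plate, and a log2 difference with its standard error (SE) comes from edgeR's quasi-likelihood test on those sums with plate as a block. A gene passed the test when its p, adjusted by Benjamini and Hochberg over all genes tested, was under 0.05. The kinds of well were cut by counts of the same wells, and the kind was proposed from these data, so the differences between kinds describe how constant they were over 6 plates and are no independent test that the kind exists.

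The 6 genes that mark the Calb2 wells were also described without a test. The vesicular acetylcholine transporter Slc18a3 (chr14:32462438-32464850, minus strand, GRCm38) was at 628, 565, 729 CPM in Calb2 wells of the irradiated plates and 706, 833, 793 CPM in those of the homeostasis plates. It averaged 709 ± 100 CPM in Calb2 wells, 500 ± 110 in Tac1/Penk wells and 94.6 ± 24.3 in Nos1 wells (SD, n = 6 plates each), and was seen in 91.7% of Calb2 wells against 89.7% of Tac1/Penk wells, 31.5% of Nos1 wells and 0.917% of CD49b+ wells. This transporter, which defines cholinergic neurons, was thus present in most Calb2 wells, and it set them apart from Nos1 wells more than from Tac1/Penk wells. Calb2 (chr8:110137502-110168210, minus strand) was at 3586, 2900, 3141 CPM on the irradiated and 3688, 3740, 4134 CPM on the homeostasis plates, and averaged 3532 ± 444 CPM in Calb2 wells, 1566 ± 425 in Tac1/Penk wells and 262 ± 99.6 in Nos1 wells.

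The other 4 markers fell into 2 pairs. Ly6c1 and Ly6e encode small proteins tethered to the cell surface by a lipid anchor, and their genes lie in 1 cluster on chromosome 15 (Ly6c1 at chr15:75044018-75048830, minus strand; Ly6e at chr15:74955051-74959905, plus strand). Ly6c1 was at 708, 1075, 1770 CPM in Calb2 wells of the irradiated plates and 1003, 2130, 1662 CPM in those of the homeostasis plates, and the lowest of these was above the highest sum of Tac1/Penk wells, 587 CPM, and of Nos1 wells, 145 CPM. Ly6e averaged 1567 ± 254 CPM in Calb2 wells, 499 ± 184 in Tac1/Penk wells and 162 ± 73.9 in Nos1 wells, again with no overlap. Chgb and Scg2, granin proteins of the dense-core granules in which peptides are stored, separated the kinds less. Chgb averaged 992 ± 142 CPM in Calb2 wells and 916 ± 93.7 in Tac1/Penk wells, whose ranges overlapped, and 209 ± 42.8 in Nos1 wells, and Scg2 averaged 2735 ± 294, 2344 ± 465 and 1517 ± 198 CPM in the same order.

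**Figure D2:**
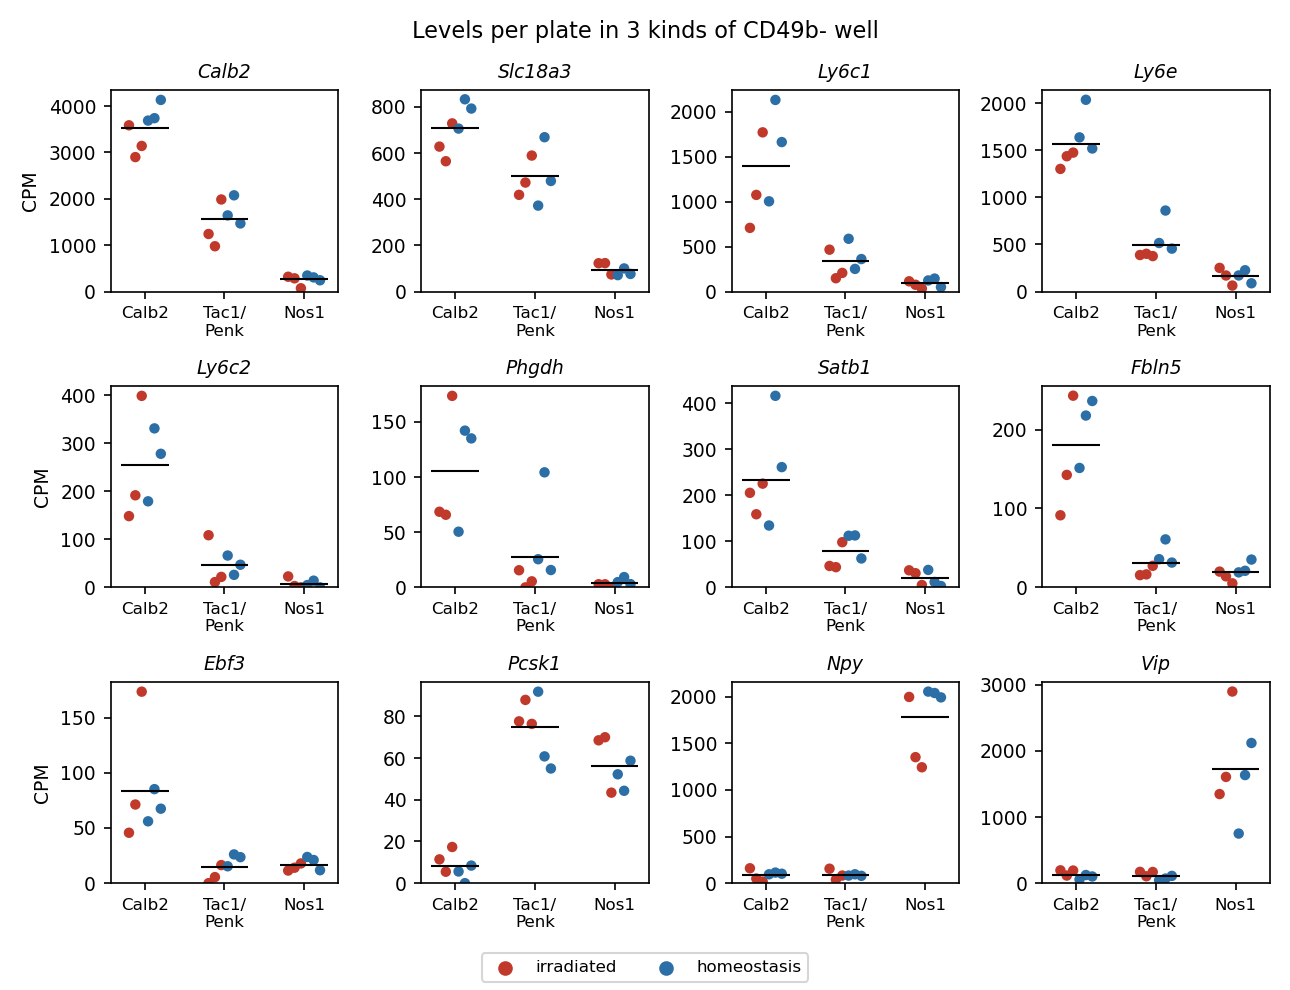
CPM (linear axes) of 12 genes in the summed wells of each CD49b- plate, for Calb2, Tac1/Penk and Nos1 wells, with red points for irradiated plates, blue points for homeostasis plates and a bar at the mean of 6 plates. Ly6c1, Ly6e, Ly6c2 and Fbln5 are higher on every plate in Calb2 wells than in either other kind, Slc18a3 is shared with Tac1/Penk wells, and Npy and Vip are high in Nos1 wells.

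Promoters are shown for 2 pairs of genes that were at higher levels in Calb2 wells than in Nos1 wells. The first pair was taken because both genes serve acetylcholine release, the second because both are Ly6 genes. Slc18a3 lies inside the Chat locus (chr14:32408203-32465989, minus strand), and Ly6c2 lies beside Ly6c1 (chr15:75108158-75111970, minus strand). Each stretch is the 300 bases from 250 before to 50 after the annotated start, taken from RefSeq on GRCm38.p6, at chr14:32464801-32465100 (Slc18a3), chr14:32465860-32466159 (Chat), chr15:75048788-75049087 (Ly6c1) and chr15:75111922-75112221 (Ly6c2), all on the minus strand. Capitals mark the letters TATAAA, searched on both strands, which 13.6% of 32544 RefSeq mouse promoters of this length hold.
Slc18a3: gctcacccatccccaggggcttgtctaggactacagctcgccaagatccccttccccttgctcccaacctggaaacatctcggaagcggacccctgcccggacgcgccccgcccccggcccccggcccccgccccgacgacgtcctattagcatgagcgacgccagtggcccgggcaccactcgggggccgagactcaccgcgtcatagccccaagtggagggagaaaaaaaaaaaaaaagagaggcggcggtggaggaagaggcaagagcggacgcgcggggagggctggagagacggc
Chat: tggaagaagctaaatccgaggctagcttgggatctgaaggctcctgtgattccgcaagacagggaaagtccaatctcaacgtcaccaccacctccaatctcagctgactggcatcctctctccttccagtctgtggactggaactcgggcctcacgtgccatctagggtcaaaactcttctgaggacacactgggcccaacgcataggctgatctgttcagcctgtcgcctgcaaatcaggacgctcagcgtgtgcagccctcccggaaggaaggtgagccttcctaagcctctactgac
Ly6c1: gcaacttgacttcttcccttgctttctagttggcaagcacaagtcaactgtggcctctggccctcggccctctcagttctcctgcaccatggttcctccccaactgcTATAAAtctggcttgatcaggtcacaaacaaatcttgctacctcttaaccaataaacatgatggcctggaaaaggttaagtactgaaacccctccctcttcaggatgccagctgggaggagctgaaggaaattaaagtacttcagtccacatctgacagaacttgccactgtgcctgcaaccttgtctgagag
Ly6c2: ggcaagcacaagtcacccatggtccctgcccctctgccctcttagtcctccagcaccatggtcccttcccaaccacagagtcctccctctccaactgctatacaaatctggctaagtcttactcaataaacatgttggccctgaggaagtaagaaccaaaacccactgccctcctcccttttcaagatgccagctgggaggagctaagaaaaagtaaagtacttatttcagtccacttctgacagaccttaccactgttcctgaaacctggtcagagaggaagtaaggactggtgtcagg
The Ly6c1 stretch holds TATAAA once, whereas those letters are not in the other 3 windows. Ly6c1 and Ly6c2 each have a second annotated start, not shown, and neither of those windows holds the letters. They were searched anywhere in a window, and whether the Ly6c1 match acts as a TATA box was not tested. The Ly6c1 and Ly6c2 stretches align with 63.0% identical positions (211 of 335). The transcripts themselves are also close: 33.0% of the 31-base words of Ly6c1 occur in Ly6c2 and 21.4% of those of Ly6c2 in Ly6c1, so the split of counts between this pair is uncertain.

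Against all other retained CD49b- wells, 354 of 5310 genes (6.67%) were higher and 413 (7.78%) lower in Calb2 wells, with rule genes and markers left out. The other wells are a mixture, so each gene is placed against the 2 large kinds below. Against Tac1/Penk wells, 211 of 6787 genes (3.11%) were higher and 329 (4.85%) lower, and against Nos1 wells 457 (6.73%) were higher and 630 (9.28%) lower. Every count of listed genes below stands beside these shares over all genes. The Calb2 sums are shared by these comparisons, which are therefore not independent of each other. The median log2 difference of all genes tested was 0.0018 against all other wells, −0.0017 against Tac1/Penk wells and −0.003 against Nos1 wells. With every well thinned to 1000 UMIs, which left fewer genes to test, 25 were higher and 34 lower than in Tac1/Penk wells, and 58 higher and 92 lower than in Nos1 wells. Without irradiated replicate 2, 135 of 6626 genes were higher than in Tac1/Penk wells. Without irradiated replicate 1, which left fewer genes to test, 398 of 4010 were lower than in Nos1 wells. Calcb/Scgn wells and wells with fewer than 3 Calb2 UMIs were too few per plate to be compared.

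Of 10 listed cholinergic genes tested, 4 were higher and 1 lower against Nos1 wells (median log2 difference 0.55), and 1 was higher and 1 lower against Tac1/Penk wells (median −0.07); against all other wells the counts were 4 and 1 (median 0.30). Chat was at 34.3, 98.7, 86.8 CPM in Calb2 wells of the irradiated plates and 67.3, 113.6, 84.4 CPM in those of the homeostasis plates, and averaged 80.8 ± 27.5 CPM there, 75.6 ± 19.2 in Tac1/Penk wells and 9.70 ± 7.90 in Nos1 wells. Its log2 difference was 2.88 (SE 0.368) against Nos1 wells and 0.18 (SE 0.297, adjusted p = 0.807) against Tac1/Penk wells, whose sums overlapped with those of Calb2 wells. Prima1, which anchors acetylcholinesterase in the membrane, was the 1 cholinergic gene higher than in both kinds, at 126, 76.8, 104 CPM on the irradiated and 101, 133, 84.4 CPM on the homeostasis plates against 17.4 to 56.1 CPM in Tac1/Penk wells and 0 to 18.7 CPM in Nos1 wells. Its call against Tac1/Penk wells was among those lost with 1 plate left out. The muscarinic receptor gene Chrm1 was lower than in both, at 12.1 ± 7.13 CPM in Calb2 wells, 52.9 ± 14.5 in Tac1/Penk wells and 56.2 ± 15.7 in Nos1 wells.

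Of the genes of inhibitory motor neurons, 9 of 11 tested were lower and 1 higher than in Nos1 wells, with a median log2 difference of −3.40, and 1 was lower and 1 higher than in Tac1/Penk wells (median 0.09). Npy (neuropeptide Y) averaged 89.5 ± 50.1 CPM in Calb2 wells, 88.5 ± 37.9 in Tac1/Penk wells and 1781 ± 376 in Nos1 wells. Vip averaged 130 ± 53.6, 112 ± 50.9 and 1726 ± 728 CPM in the same 3 kinds, and Etv1, a transcription factor, 36.9 ± 26.2, 19.6 ± 11.8 and 501 ± 85.0 CPM. In these genes the sums of Calb2 and Tac1/Penk wells overlapped and both lay below every sum of Nos1 wells. An Npy UMI was seen in 36.1% of Calb2 wells and 43.3% of CD49b+ wells, and a Vip UMI in 45.1% and 0.917%; the median depths were 5499 and 2462 UMIs, and the Npy share in Calb2 wells was thus not above that in CD49b+ wells. The gene for the p75 neurotrophin receptor, Ngfr, had 3 UMIs in all Calb2 wells and 509 in Nos1 wells, a 59.6-fold lower level (95% counting interval of the ratio 20.3 to 290). Arhgap15 had 1 UMI against 204 in Nos1 wells, 71.6-fold lower (12.7 to 2843).

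Tac1 and Penk were bounded by the rule, but the other listed genes of excitatory motor neurons were not. Against Nos1 wells 4 of 6 tested were higher and none lower (median log2 difference 2.85), and against Tac1/Penk wells 2 were higher and 1 lower (median 0.07). The kappa opioid receptor gene Oprk1 was at 137, 197, 86.8 CPM in Calb2 wells of the irradiated plates and 364, 303, 202 CPM in those of the homeostasis plates, against 115.4 to 209 CPM in Tac1/Penk wells and 0 to 56.0 CPM in Nos1 wells. Calb2 and Tac1/Penk wells overlapped for Oprk1. Ndufa4l2, a paralogue of a respiratory chain subunit, was higher than in both, at 405 ± 134 CPM in Calb2 wells, 193 ± 69.0 in Tac1/Penk wells and 25.7 ± 21.6 in Nos1 wells, with log2 differences of 1.05 (SE 0.18) and 4.02 (SE 0.228). Gda, which encodes guanine deaminase, went the other way from Tac1/Penk wells, with 4 UMIs in all Calb2 wells (5.68 ± 9.53 CPM) against 85.7 ± 17.8 CPM in Tac1/Penk wells, while Nos1 wells were also low at 7.91 ± 9.48 CPM.

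Of 8 listed genes of sensory neurons and interneurons tested against Tac1/Penk wells, 3 were lower (Nefl, Htr3a and Htr3b) and Sst was higher, and against Nos1 wells 6 were lower and again Sst was higher. Htr3a, a subunit of the serotonin-gated channel, was at 171, 186, 191 CPM in Calb2 wells of the irradiated plates and 33.6, 37.9, 110 CPM in those of the homeostasis plates, against 435, 555, 540 CPM and 311, 139, 302 CPM in Tac1/Penk wells of the same plates. It was lower in Calb2 wells on each plate, although the ranges over all plates overlapped. Its log2 difference was −1.75 (SE 0.189) against Tac1/Penk wells and −2.44 (SE 0.165) against Nos1 wells. The noradrenaline enzyme gene Dbh had 0 UMIs in Calb2 wells and 84 in Nos1 wells, at least 9.83-fold lower (3 UMIs over the group taken as the floor).

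Beside the markers Ly6c1 and Ly6e, their neighbour Ly6c2 was higher in Calb2 wells, with a log2 difference of 3.59 (SE 0.259) against all other wells, 2.49 (SE 0.301) against Tac1/Penk wells and 4.82 (SE 0.347) against Nos1 wells. It was at 148, 192, 399 CPM in Calb2 wells of the irradiated plates and 179, 331, 278 CPM in those of the homeostasis plates, against 10.99 to 109 CPM in Tac1/Penk wells and 0 to 22.8 CPM in Nos1 wells, so that the kinds did not overlap. It was seen in 48.9% of Calb2 wells, 18.8% of Tac1/Penk wells, 2.76% of Nos1 wells and 0% of CD49b+ wells. Of 5 genes of the Ly6 family list tested against Tac1/Penk wells 2 were higher (Ly6c2 and Ly6h) and none lower, and against Nos1 wells the same pair was higher and Thy1 lower.

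Other leading genes were of mixed kinds. Phgdh, the first enzyme of serine synthesis, was at 68.5, 65.8, 174 CPM on the irradiated and 50.4, 142, 135 CPM on the homeostasis plates in Calb2 wells, and averaged 106 ± 50.6 CPM there, 27.7 ± 38.5 in Tac1/Penk wells and 3.78 ± 3.12 in Nos1 wells. Fbln5, an elastic fibre protein, averaged 180 ± 61.0, 31.2 ± 16.6 and 19.1 ± 9.86 CPM in the same kinds and did not overlap with either. Phgdh overlapped with Tac1/Penk wells, 1 of whose sums was at 104 CPM. Of the 31-base words of Phgdh 44.8% occur in the gene model Gm7901, which leaves the assignment of its counts uncertain. Both genes were also frequent in CD49b+ wells, where a Fbln5 UMI was seen in 34.6% and a Phgdh UMI in 25.5%, against 54.9% and 38.3% of Calb2 wells. Tmem132c (100.5 ± 29.8, 23.9 ± 13.6 and 5.62 ± 5.75 CPM) and the calcium sensor gene Caln1 (89.6 ± 28.0, 25.1 ± 11.9 and 4.85 ± 2.01 CPM) followed the same order in Calb2, Tac1/Penk and Nos1 wells and were seen in 2.29% and 0.229% of CD49b+ wells. Of the genes named by size as higher than in Tac1/Penk wells and with more than 3 UMIs in both kinds, the sarcomere gene Tcap had the largest fitted difference (3.29, SE 0.44), at 263, 27.4, 174 CPM on the irradiated and 129, 104, 152 CPM on the homeostasis plates against 0 to 31.4 CPM in Tac1/Penk wells, so that the low sum of irradiated replicate 2 overlapped. Zranb3, a DNA helicase of stalled replication forks, was higher than in both Tac1/Penk wells (2.45, SE 0.42) and Nos1 wells (2.63, SE 0.372).

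Of 27 listed transcription factors of enteric neurons tested against Tac1/Penk wells, 5 were higher and 1 lower, and against Nos1 wells 10 were higher and 5 lower. Satb1, a chromatin organiser, was at 206, 159, 226 CPM in Calb2 wells of the irradiated plates and 135, 417, 262 CPM in those of the homeostasis plates, against 43.9 to 113 CPM in Tac1/Penk wells and 2.94 to 38.0 CPM in Nos1 wells. Satb1 separated the 3 kinds on every plate, with log2 differences of 1.38 (SE 0.265) against Tac1/Penk wells and 3.40 (SE 0.296) against Nos1 wells. Ebf3 was at 45.7, 71.3, 174 CPM on the irradiated and 56.0, 85.2, 67.5 CPM on the homeostasis plates against at most 26.1 CPM in either other kind. Sox11 was higher than in both kinds (58.6 ± 32.7, 15.8 ± 10.6 and 4.50 ± 4.06 CPM), while Tbx3 (24.0 ± 6.73 against 202 ± 31.9 CPM) and Klf7 (75.0 ± 22.3 against 174 ± 30 CPM) were lower than in Nos1 wells. The Sox11 call against Tac1/Penk wells was among those lost with 1 plate left out. Id4, an inhibitor of helix-loop-helix factors, had 0 UMIs in Calb2 wells and 63 in Tac1/Penk wells, at least 15.4-fold lower.

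Some genes that turn peptide precursors into peptides were lower in Calb2 wells. Pcsk1, a prohormone convertase that cuts precursors, had 5 UMIs in all Calb2 wells, at 11.4, 5.48, 17.4 CPM on the irradiated and 5.60, 0, 8.44 CPM on the homeostasis plates, against 55 to 91.8 CPM in Tac1/Penk wells and 43.4 to 70.0 CPM in Nos1 wells. Pam, which amidates peptides, was at 423, 472, 451 CPM on the irradiated and 392.3, 606, 245 CPM on the homeostasis plates, and averaged 431.4 ± 117.4 CPM in Calb2 wells, 847 ± 160 in Tac1/Penk wells and 624 ± 125 in Nos1 wells. Neither Pcsk1 nor Pam overlapped with Tac1/Penk wells. Of the 15 granule genes tested, 4 were lower and none higher than in Tac1/Penk wells (Pcsk1, Pam, Scg3 and Resp18), and 4 were lower and 2 higher than in Nos1 wells, the higher ones being Pcsk2, a second convertase, and Cpe, a carboxypeptidase that trims peptides (893 ± 116.2 against 631 ± 97.7 CPM). Over all genes 3.11% were higher and 4.85% lower than in Tac1/Penk wells, and 6.73% and 9.28% against Nos1 wells. The Scg3 calls in both comparisons were among those lost with 1 plate left out. The median log2 difference of these 15 genes was −0.25 against Tac1/Penk wells and −0.14 against Nos1 wells.

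Several genes that were frequent in Tac1/Penk wells were close to absent from Calb2 wells. Kcnip4, a subunit of potassium channels, was at 34.3, 0, 0 CPM on the irradiated and 5.60, 9.47, 0 CPM on the homeostasis plates in Calb2 wells, against 121.6 to 253 CPM in Tac1/Penk wells (log2 difference −4.50, SE 0.447). Moxd1 was at 0 to 17.4 CPM against 104 to 169 CPM in Tac1/Penk wells and 42.7 to 97.0 CPM in Nos1 wells. The serotonin receptor gene Htr2b had 1 UMI in Calb2 wells and 102 in Tac1/Penk wells, 74.8-fold lower (13.1 to 2984), and the proteoglycan gene Spock3 1 and 76, 55.7-fold lower (9.71 to 2231). Spock3 and Moxd1 were also lower against Nos1 wells, whereas Htr2b was low there too (9 UMIs).

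Single receptor and synaptic genes were higher or lower in Calb2 wells. Gfra2, the receptor for neurturin, was at 228, 219, 174 CPM in Calb2 wells of the irradiated plates and 241, 113.6, 262 CPM in those of the homeostasis plates, against 62.1 to 142 CPM in Tac1/Penk wells and 2.55 to 33.6 CPM in Nos1 wells. Its relative Gfra1, the receptor for GDNF, had 2 UMIs in Calb2 wells, 0 in Tac1/Penk wells and 160 in Nos1 wells. The ATP-gated channel gene P2rx2 was higher than in Tac1/Penk wells (149 ± 49.4 against 70.3 ± 19.04 CPM) and lower than in Nos1 wells (190 ± 33.2 CPM), and the cannabinoid receptor gene Cnr1 was lower than in both (101 ± 44.8, 175 ± 61.6 and 160 ± 72.1 CPM). Against Nos1 wells, the P2rx2 call was lost without any 1 of 4 plates (irradiated replicates 2 and 3 and homeostasis replicates 1 and 2), with the smallest difference without homeostasis replicate 1 (−0.28, adjusted p = 0.372), and that of Cnr1 was lost without homeostasis replicate 3 (−0.59, adjusted p = 0.0623). Of 28 channel and receptor genes tested, 2 were higher and 1 lower than in Tac1/Penk wells, close to the shares over all genes (3.11% higher and 4.85% lower), and 8 were higher and 6 lower than in Nos1 wells (6.73% and 9.28% over all genes). Of 22 synaptic vesicle genes, 1 was higher, Vamp1 (306 ± 65.0 against 142 ± 49.4 CPM), and 4 lower than in Tac1/Penk wells. Against Nos1 wells 6 of the 22 were higher (Snap25, Syt1, Vamp1, Syn2, Rab3c and Sncb) and 6 lower, and Sncb, beta-synuclein, was lower than in Tac1/Penk wells. Sncg, gamma-synuclein, was the most abundant of the lower ones: it was at 1450, 938, 1006 CPM on the irradiated and 1300, 881, 894 CPM on the homeostasis plates in Calb2 wells, against 3964 to 4620 CPM in Tac1/Penk wells and 4401 to 5469 CPM in Nos1 wells.

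Genes of the neurite cytoskeleton and of cholesterol synthesis that passed the test were lower, with the exception of Basp1. Of 24 cytoskeletal genes, 10 were lower and 1 higher than in Tac1/Penk wells (median log2 difference −0.34), and 15 were lower and 1 higher than in Nos1 wells (median −0.41). Tubb3, the neuronal beta-tubulin, averaged 271 ± 43.9 CPM in Calb2 wells, 641 ± 157 in Tac1/Penk wells and 962 ± 103 in Nos1 wells, and the intermediate filament gene Prph 1047 ± 77.9, 1703 ± 203 and 1676 ± 169 CPM. Basp1, a growth cone membrane protein, was at 183, 132, 243 CPM on the irradiated and 202, 237, 135 CPM on the homeostasis plates, against 31.4 to 124 CPM in Tac1/Penk wells and 14.2 to 47.6 CPM in Nos1 wells. Of 17 cholesterol genes, 5 were lower and none higher than in Tac1/Penk wells (median −0.35), and 10 were lower and none higher than in Nos1 wells (median −0.84). Sqle, an early enzyme of the sterol pathway, averaged 72.2 ± 18.9 CPM in Calb2 wells, 133 ± 28.0 in Tac1/Penk wells and 166 ± 37.8 in Nos1 wells. A mixed list held Bglap and Cox genes beside others such as Gpx3, Cd24a, Tmem176a, Tmem176b and Fxyd7. Of its 15 genes tested, 4 were higher and 6 lower than in Tac1/Penk wells. Against Nos1 wells 1 was higher and 12 lower. The near-identical osteocalcin copies Bglap, Bglap2 and Bglap3 were higher than in Tac1/Penk wells and lower than in Nos1 wells (Bglap 361 ± 148, 197 ± 72.3 and 2137 ± 501 CPM), with an uncertain split among the copies. The Bglap2 call against Tac1/Penk wells was among those lost with 1 plate left out.

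Immediate early genes, which cells switch on within minutes of a stimulus or of handling, were higher than in Tac1/Penk wells for 14 of 20 tested, with none lower and a median log2 difference of 1.15. Egr1 was at 571, 323, 521 CPM in Calb2 wells of the irradiated plates and 532, 530, 1046 CPM in those of the homeostasis plates, against 136 to 202 CPM in Tac1/Penk wells, with no overlap. Against Nos1 wells the list split, with 4 higher (Fos, Egr1, Zfp36 and Socs3) and 9 lower. The calls of Fos, Egr1 and Socs3 against Nos1 wells were among those lost with 1 plate left out. Immediate early genes were frequent in CD49b+ wells, where 92.7% had an Egr1 UMI, against 86.5% of Calb2 wells, and 99.8% a Fos UMI, against 98.5%. Genes of the glial list were higher as well: of 5 tested against Tac1/Penk wells, 4 were higher and none lower, and the 8 of 14 with any UMI summed to 1080 to 1165 CPM in Calb2 wells of the irradiated plates and 930 to 1288 CPM in those of the homeostasis plates. Pooled over plates the glial list was at 1116 CPM in Calb2 wells, 572 in Tac1/Penk wells, 793 in Nos1 wells and 35928 in CD49b+ wells. Cryab (702 ± 60.6, 329 ± 79.4 and 600 ± 92.6 CPM) and Sparc (254 ± 48.7, 99.3 ± 49.9 and 108 ± 10.5 CPM), in the order Calb2, Tac1/Penk and Nos1 wells, made up most of it, while Sox10, Gfap, Erbb3, Cdh19 and Kcna1 were among those at 0. The part of free glial RNA in either list was not tested.

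Of 14 interferon-response genes tested, 3 were higher and none lower than in Tac1/Penk wells, and 4 were higher than in Nos1 wells. Ifitm2, which restricts viral entry, was at 3586, 3043, 3193 CPM on the irradiated and 3279, 3257, 2522 CPM on the homeostasis plates in Calb2 wells, against 1505 to 2101 CPM in Tac1/Penk wells and 584 to 970 CPM in Nos1 wells. Oas1a, an antiviral sensor, had 32 UMIs in Calb2 wells and 3 in Tac1/Penk wells, a ratio of 14.5 (4.55 to 74.2). Of the 31-base words of Oas1a 68.7% occur in Oas1g, so the split of counts between these genes is uncertain. Of 9 antigen presentation genes, 1 was higher than in Tac1/Penk wells, the immunoproteasome gene Psmb8 (152 ± 82.4 against 53.7 ± 22.5 CPM), and 5 were higher than in Nos1 wells. Of 14 genes of the unfolded protein response, 2 were higher than in Tac1/Penk wells and 5 higher than in Nos1 wells, with none lower in either. Over all genes 3.11% were higher than in Tac1/Penk wells and 6.73% higher than in Nos1 wells. These lists are short, and a count of 1 or 2 genes is no result about a list.

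Of 13 calcium-buffer genes 4 were lower and none higher than in Tac1/Penk wells, and 5 lower and 1 higher than in Nos1 wells. Of 13 heat-shock genes 2 were lower and 1, Cryab, higher than in Tac1/Penk wells, and 6 lower and none higher than in Nos1 wells. Of 17 axon injury genes 4 were higher (Atf3, Sox11, Gal and Jun, of which Gal rested on 1 plate) and 2 lower than in Tac1/Penk wells, and 3 higher and 9 lower than in Nos1 wells. No apoptosis gene passed in either comparison (7 tested), and of 4 DNA repair genes Atm was higher than in Nos1 wells. The Atm call was among those lost with 1 plate left out. Over all genes 3.11% were higher and 4.85% lower than in Tac1/Penk wells, and 6.73% and 9.28% against Nos1 wells.

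The Tac1/Penk wells were themselves of 2 sorts, 57 with at least 3 Calb2 UMIs and 60 with fewer, and in several of the genes above the Calb2-bearing sort lay between the Calb2 wells and the rest. The pooled levels are a description, as all sums come from wells cut by their own counts. Ly6c1 was at 1316 CPM in Calb2 wells, 594 in Calb2-bearing Tac1/Penk wells, 55.8 in Tac1/Penk wells without Calb2 and 89.0 in Nos1 wells. Ly6c2 was at 234, 80.1, 0 and 7.70 CPM in the same order, Ly6e at 1572, 848, 101 and 162 CPM, and Satb1 at 218, 139, 18.6 and 19.2 CPM. Kcnip4 ran the other way, at 6.85, 60.6, 269 and 27.9 CPM, as did Gda at 5.48, 25.4, 145 and 8.18 CPM. Slc18a3, at 696, 625, 358 and 96.2 CPM, and Scg2, at 2734, 3810, 844 and 1497 CPM, separated Tac1/Penk wells with Calb2 from those without more than they separated Calb2 wells from their Calb2-bearing neighbours. Calb2-bearing Tac1/Penk wells were deeper, at a median of 8599 UMIs against 5499 in Calb2 wells, and depth moved wells across the bounds of the rule. With the rule applied to wells thinned to 2000 UMIs, Calb2 wells numbered 166 and Tac1/Penk wells 64. Of the wells with at least 2000 UMIs, the rule as used took 131 as Calb2 wells and all 57 and 60 of the Tac1/Penk wells above.

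**Figure D3:**
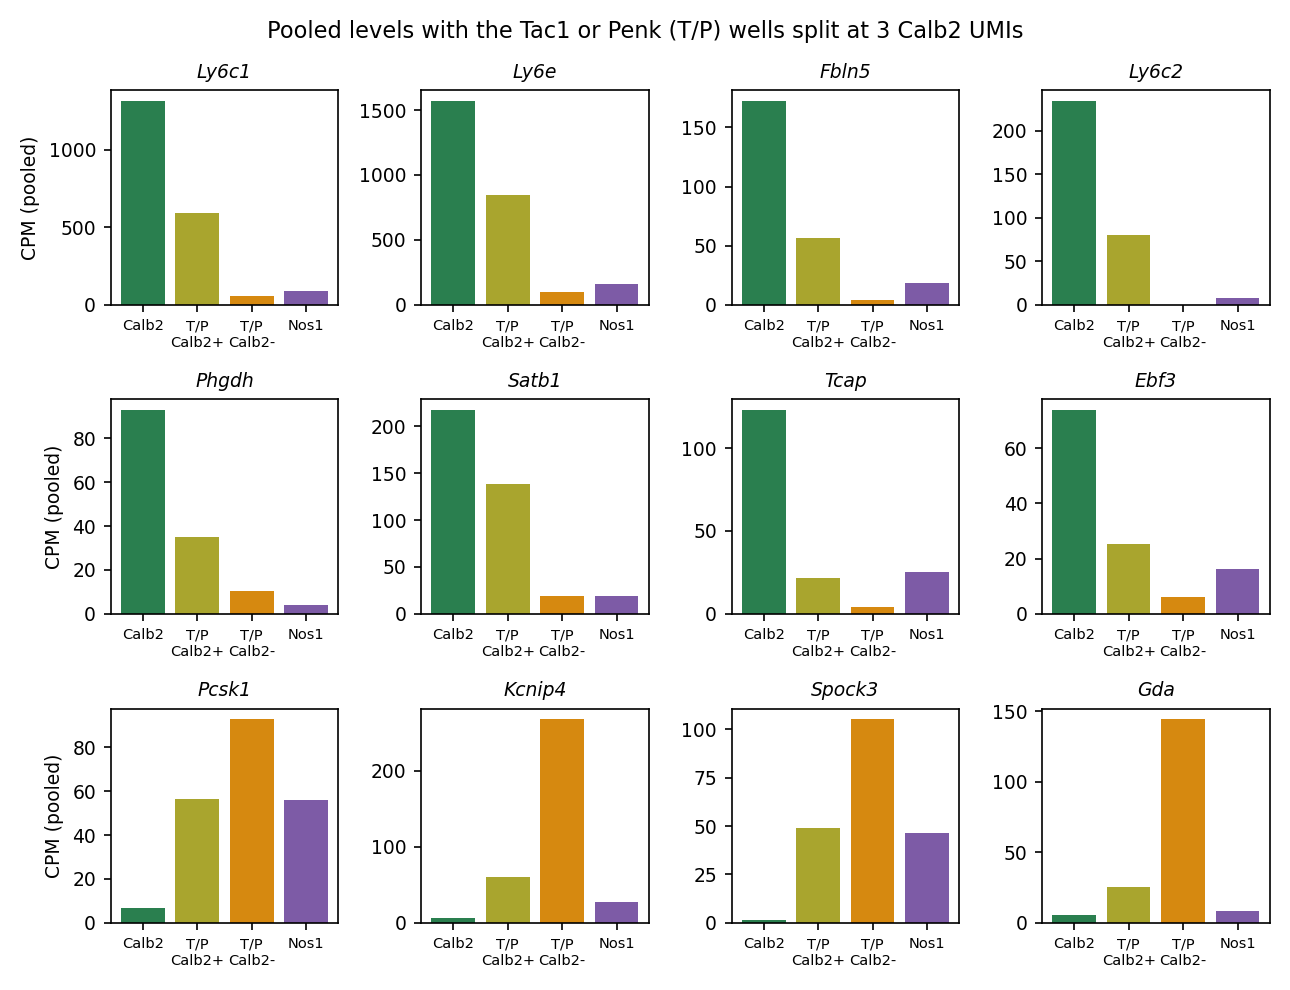
Pooled CPM (linear axes from 0) of 12 genes in Calb2 wells, Tac1/Penk (T/P) wells with Calb2, Tac1/Penk wells without Calb2, and Nos1 wells, summed over the 6 plates. Ly6c1, Ly6e, Fbln5, Ly6c2 and Satb1 step down across the first 3 kinds, and Kcnip4, Spock3, Gda and Pcsk1 step up.

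Among the Calb2 wells, the marker genes did not divide the wells into clear parts. In the 131 wells deep enough to be thinned to 2000 UMIs, Ly6c1 was seen in 91 and Ly6c2 in 42; both were seen in 40 wells, Ly6c2 alone in 2 and neither in 38. Slc18a3 was seen in 96 of these wells and Chat in 24, together in 19. Somatostatin (Sst), a peptide of some enteric interneurons, was the most uneven of the named peptides: 33 of the 133 wells held any UMI, 3 wells held 10 or more, and the highest held 35. Of the 33 wells, 10 were of irradiated replicate 2 and held at most 3 UMIs, and on that plate 22 of 37 Nos1 wells also held an Sst UMI, as did 6 of 7 Tac1/Penk wells with Calb2 and 7 of 13 without, at most 4 in any of them. Its summed level was 457, 93.2, 121.5 CPM in Calb2 wells of the irradiated plates and 179, 123.1, 422 CPM in those of the homeostasis plates, and without the highest well of each plate 143, 79.7, 74.8 and 133, 51.2, 132 CPM. Sst was higher than in Tac1/Penk wells (log2 difference 3.11, SE 0.447, adjusted p = 2.67e-07) on 5 of 6 plates, the exception being irradiated replicate 2 (93.2 against 98.9 CPM), and 0% of CD49b+ wells had an Sst UMI. Its promoter is shown because it carries the cyclic AMP response element through which this gene is classically induced, the letters TGACGTCA in capitals, found in 1.80% of RefSeq promoters (chr16:23890795-23891094, minus strand, GRCm38.p6).
Sst: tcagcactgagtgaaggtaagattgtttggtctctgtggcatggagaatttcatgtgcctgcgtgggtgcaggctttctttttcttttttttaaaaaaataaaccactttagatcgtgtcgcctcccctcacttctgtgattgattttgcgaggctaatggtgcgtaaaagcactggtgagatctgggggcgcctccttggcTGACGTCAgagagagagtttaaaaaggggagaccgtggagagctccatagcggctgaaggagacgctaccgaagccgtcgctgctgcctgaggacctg

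Galanin (Gal) was seen in every Calb2 well and was at 9262, 1968, 1718 CPM in Calb2 wells of the irradiated plates and 10537, 2310, 1805 CPM in those of the homeostasis plates. The high value of homeostasis replicate 1 came from 1 well that held 1600 of 1880 Gal UMIs; without it the plate was at 1660 CPM. Gal was higher than in Tac1/Penk wells (log2 difference 0.87, SE 0.23, adjusted p = 0.0076) with that well included. Without homeostasis replicate 1, the plate of that well, the difference was 0.22 and the call was lost (adjusted p = 0.217), as it was without the plate block (adjusted p = 0.286) and with DESeq2 (adjusted p = 0.467). The high value of irradiated replicate 1 did not rest on 1 well, since its highest well held 75 of 811 UMIs and its median well 37. Nos1 wells of that plate had the highest Gal of any kind, 47253 CPM, against 9514 to 25505 CPM in Nos1 wells of the other 5 plates, and 23.4% of CD49b+ wells had a Gal UMI. The part of free Gal RNA in the Calb2 wells was not tested.

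With the rule as used, the share of Calb2 wells among retained CD49b- wells did not differ beyond the spread between plates. It was 20 of 92 wells, 29 of 89 and 11 of 85 on irradiated replicates 1, 2 and 3, and 36 of 93, 16 of 78 and 21 of 91 on homeostasis replicates 1, 2 and 3. The shares were 21.7% (95% Wilson interval 14.5 to 31.2), 32.6% (23.7 to 42.9) and 12.9% (7.38 to 21.7) on the irradiated plates, against 38.7% (29.4 to 48.9), 20.5% (13.04 to 30.8) and 23.1% (15.6 to 32.7) on the homeostasis plates; the intervals cover counting error only. The groups overlapped, with means of 22.4% ± 9.84 and 27.4% ± 9.85 (SD, n = 3 each), a difference of −5.01 percentage points and an exact two-sided permutation p of 0.6, where 0.1 is the smallest that 3 against 3 plates allow. With homeostasis replicate 1 left out the difference was 0.627 points. With the rule applied to wells thinned to 2000 UMIs, the shares were 25.3% ± 6.00 in irradiated and 37.9% ± 8.37 in homeostasis plates (exact permutation p = 0.1). Those shares did not overlap, with at most 30.7% on an irradiated and at least 31.2% on a homeostasis plate. The bounds were kept at the same UMI counts in the thinned wells, so this setting did not take the same set of wells. It gave 166 Calb2 wells against 133, 190 Nos1 wells against 254, and 84 wells with fewer than 3 Calb2 UMIs against 7. It is therefore not a share of the same cells corrected for depth. The share depends on Tac1 and Penk, which the rule bounds, so their levels are given as a description only. Tac1 in Calb2 wells, under its cap, was at 720, 696, 764 CPM on irradiated and 572, 407, 565 CPM on homeostasis plates. Penk was at 274, 616, 695 CPM in irradiated and 18.99, 21.0, 35.2 CPM in homeostasis Nos1 wells. A Nos1 well lay outside the Calb2 wells whatever its Penk count, so these Penk values do not bear on the share. The part of Tac1 and Penk in the share was not tested.

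**Figure D4:**
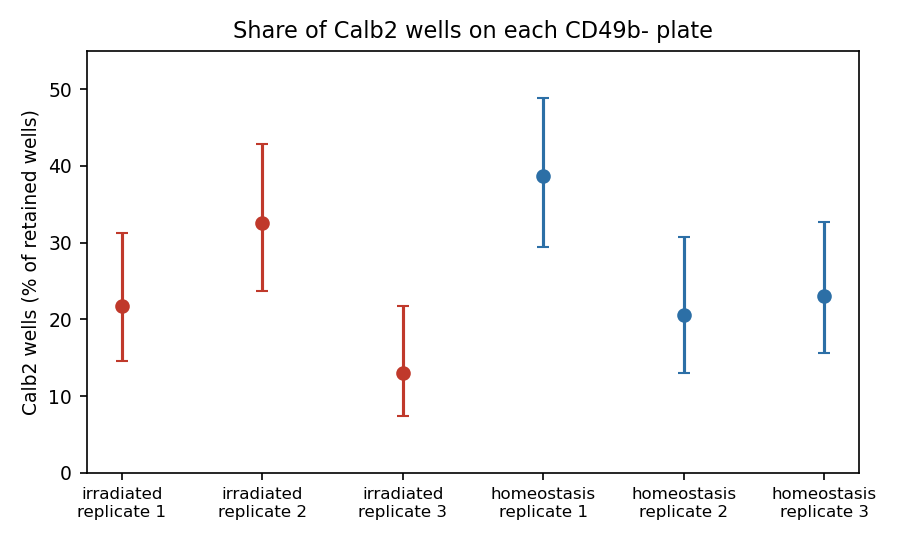
Share of retained CD49b- wells that were Calb2 wells (percent, vertical) on each of the 3 irradiated and 3 homeostasis plates, with 95% Wilson intervals. The irradiated plates lie between 12.9% and 32.6% and overlap the homeostasis plates, which lie between 20.5% and 38.7%.

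No gene passed the test between irradiated and homeostasis Calb2 wells. Of 2340 genes tested between 3 irradiated and 3 homeostasis sums, 0 were higher (0.0%) and 0 lower (0.0%) by edgeR, and DESeq2 also called 0, while 188 had an unadjusted p under 0.05. Without irradiated replicate 1 the count was 19, and without each of the other plates in turn 1 to 4. In 134 genes (5.73%) every irradiated sum was above every homeostasis sum and in 155 (6.62%) below. The sums were small, 11 to 36 wells a plate, and a p that misses the threshold does not show that a gene kept its level. The plates also fall into sets by their running numbers, of which the set of irradiated replicate 1 and homeostasis replicate 1 alone holds both treatments, so treatment and plate set cannot be fully told apart.

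The genes below had the smallest p-values and were picked after their values were seen. Hist1h2bc, a histone H2B gene, was at 537, 307, 625 CPM in Calb2 wells of the irradiated plates and 168, 199, 219 CPM in those of the homeostasis plates (log2 difference 1.26, SE 0.27, adjusted p = 0.137). It shares 26.1% of its 31-base words with Hist1h2br, so the assignment of its counts is uncertain. Scube1, a secreted or membrane-bound EGF-repeat protein, was at 217, 307, 260 against 117.7, 123.1, 118.1 CPM (1.18, SE 0.27, adjusted p = 0.137), and Tm4sf4, a tetraspan membrane protein, at 4214, 4688, 4078 against 2903, 2821, 2447 CPM (0.69, SE 0.16, adjusted p = 0.137). Hoxa5, a positional transcription factor, was at 868, 800, 920 CPM on the irradiated and 1356, 1515, 1417 CPM on the homeostasis plates (−0.72, SE 0.16, adjusted p = 0.137). In each of these genes the irradiated and homeostasis sums did not overlap. The peptide gene Cartpt had the largest of these log2 differences, 1.65 (SE 0.381, adjusted p = 0.137), but overlapped, at 1165, 345, 1006 CPM on the irradiated and 140, 246, 397 CPM on the homeostasis plates. Within the plate set that holds both treatments, Cartpt was at 1165 CPM (irradiated) and 140 CPM (homeostasis), and Hist1h2bc at 537 and 168. In the same order Scube1 was at 217 and 117.7, Tm4sf4 at 4214 and 2903, and Hoxa5 at 868 and 1356. These plates were among those by which the genes were picked, so their values are no separate check.

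Other kinds of well had values in the same order for some of these genes. B2m, the light chain of class I antigen presentation, was at 480, 384, 469 CPM in irradiated and 213, 265, 278 CPM in homeostasis Calb2 wells (0.82, SE 0.219, adjusted p = 0.271), at 363, 409, 304 against 256, 222, 270 CPM in Nos1 wells and at 543, 599, 338 against 270, 261, 255 CPM in Tac1/Penk wells. Hoxa5 was at 488, 403, 360 against 650, 529, 461 CPM in Nos1 wells, where the treatments overlapped. Cartpt was far more abundant in Nos1 wells, with 2101, 1624 and 3765 UMIs in the 55, 37 and 47 Nos1 wells of the irradiated plates. The 30, 48 and 37 Nos1 wells of the homeostasis plates held 342, 1106 and 1767. No Calb2 well held more than 11 Cartpt UMIs, and the part of free Cartpt RNA in Calb2 wells was not tested. Avpr1a, a vasopressin receptor, was at 11.4, 21.9, 69.4 CPM in irradiated and 112, 161, 92.8 CPM in homeostasis Calb2 wells (−2.05, SE 0.528, adjusted p = 0.243) and at 15.5, 5.49, 21.8 against 102, 52.1, 58.9 CPM in Tac1/Penk wells. Htr3a was at 171, 186, 191 CPM in irradiated and 33.6, 37.9, 110 CPM in homeostasis Calb2 wells (1.66, SE 0.408, adjusted p = 0.177).

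**Figure D5:**
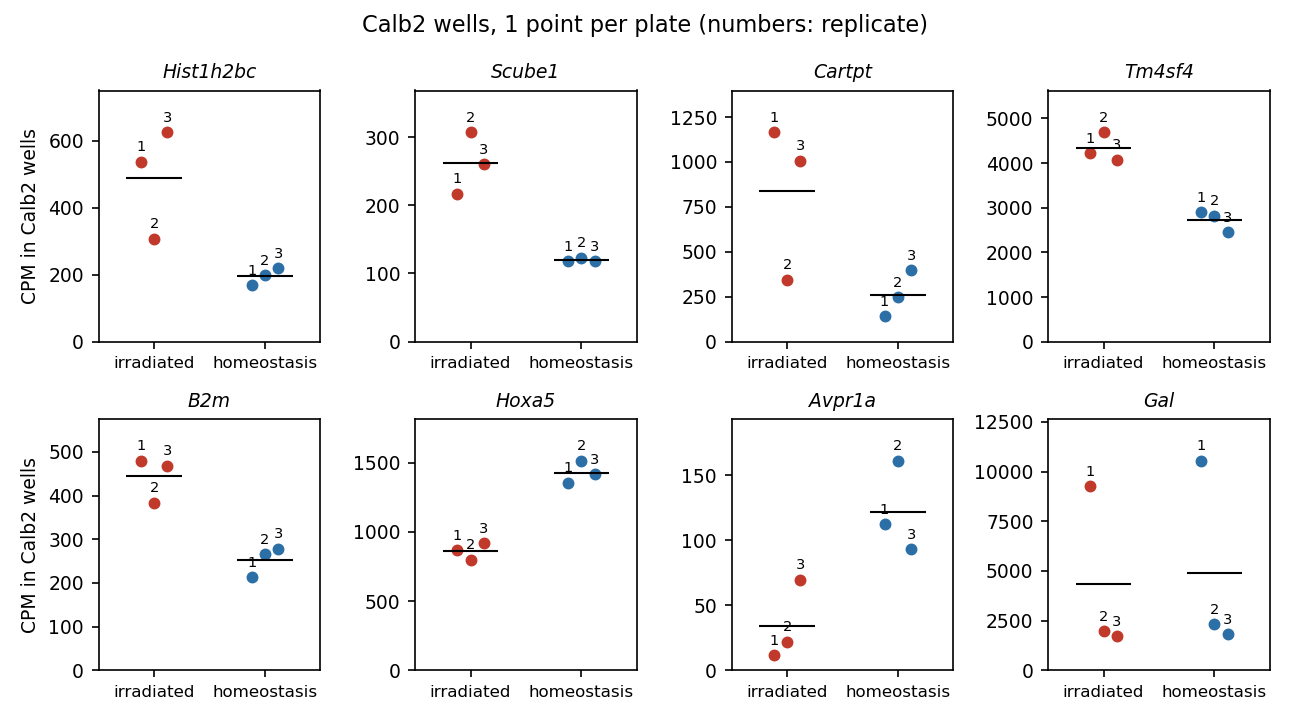
CPM of 8 genes in the summed Calb2 wells of each plate, 3 irradiated plates left of 3 homeostasis plates, with bars at the group means. Hist1h2bc, Scube1, Tm4sf4, B2m, Hoxa5 and Avpr1a do not overlap between treatments, Cartpt overlaps, and Gal is high on replicate 1 of both.

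No gene list moved past the test with irradiation, since no gene did. All 8 antigen presentation genes tested had a positive log2 difference (median 0.42), as had 4 of 4 interferon genes (median 0.22), beside a median of 0.0076 over all genes. All 4 cholesterol genes tested had a negative one (median −0.50). Of the targets of p53, the factor that answers DNA damage, 3 could be tested and all 3 had a negative log2 difference (median −0.03). The 6 markers had a median of −0.27, with 5 of 6 negative.

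Whether irradiation acted otherwise in Calb2 wells than in the other CD49b- wells was tested as an interaction over 6737 genes. Of these 2 passed (0.0297%), both with a negative interaction. That is a lower irradiation effect in Calb2 wells, not a lower level. They were Sst and the gene model Gm43210, and each rested on single wells, whose counts are given among the additional observations.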

How the data were processed

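Single sorted cells of 12 plates, 6 of them CD49b-, were given by the authors as 1 deposited table of whole-number UMI counts for 50508 genes in 1150 wells. The submitters' processing notes list the builds GRCm38 and GRCh38 beside STAR 2.5.3a and featureCounts 1.5.3, with no roles, and how UMIs were collapsed is not given in the sources used here. Plates reuse 1 set of barcodes, 95 of 96 being on every plate. Columns were assigned to plates by their names, and replicate numbers, given in accession order, only name plates.

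UMI counts of the wells of 1 kind were summed per plate, leaving out sums of fewer than 5 wells. edgeR 4.0.16 (R 4.3.3; TMM, filterByExpr, quasi-likelihood test, Benjamini-Hochberg adjustment) compared kinds with plate as a block, 3 irradiated with 3 homeostasis sums without a block, and the interaction of kind and treatment. Each plate is a pool of 2 mice. Shares were compared by exact permutation (Python 3.11.15, scipy 1.17.1). The steps were tested on simulated counts.

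Genes named by size were up to 12 per direction with at least 50 CPM, an adjusted p under 0.05 and the same sign on every plate, without gene models. The members, the 36 gene lists and this rule were chosen with earlier results of these data known. Alternatives were DESeq2 1.42.0, no filter, other bounds of the rule, thinned wells, leaving out each plate, and fits with or without the block. Plates fall into 3 sets by their running numbers, and what a set shares is not stated. Doublets were not called. Some genes are not reported here.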

Additional observations from a re-analysis of the deposited data

Results flagged for a closer look

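In 2 genes the difference between irradiated and homeostasis plates was not the same in Calb2 wells as in the other CD49b- wells, by the edgeR interaction test. For Sst the interaction was −6.97 on the log2 scale (SE 1.01, adjusted p = 3.88e-05). Calb2 wells held 40, 17 and 7 Sst UMIs on the irradiated and 32, 13 and 50 on the homeostasis plates. Of the other wells, 1 Calcb/Scgn well of irradiated replicate 2 held 716 UMIs. Without that plate the interaction was −1.77 (adjusted p = 0.82), and DESeq2 did not call it.

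For the gene model Gm43210 the interaction was −6.42 (SE 1.27, adjusted p = 0.0169). Calb2 wells held 1, 0 and 0 UMIs on the irradiated and 14, 12 and 10 on the homeostasis plates, and 13, 12 and 10 of the homeostasis UMIs lay in 1 well of each plate. DESeq2 gave an adjusted p of 0.252. The call was lost without irradiated replicate 2 (adjusted p = 0.361), without irradiated replicate 3 (0.415) and without homeostasis replicate 2 (0.189). With Tac1 plus Penk below 5 in the rule, the interaction was −3.55 (adjusted p = 1).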

How the results depend on the processing

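With DESeq2 the genes higher and lower in Calb2 wells numbered 193 and 234 against all other wells, 125 and 168 against Tac1/Penk wells, and 366 were lower than in Nos1 wells; the interaction gave 0. With wells thinned to 1000 UMIs the counts were 47 and 61 against all other wells, 25 and 34 against Tac1/Penk wells, and 58 and 92 against Nos1 wells. With no filter 921 genes were lower than in all other wells, 19 were called for irradiation and 4 for the interaction. With Nos1 at 0, 227 genes were higher than in all other wells, and with Tac1 plus Penk below 5, 213. With the rule on thinned wells, irradiation called 2 genes. The share difference was −12.6 points with that rule and −9.56 points with Tac1 plus Penk below 5.

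Without the plate block, 266 genes were lower than in all other wells, and 134 were higher and 210 lower than in Tac1/Penk wells. Replicate numbers do not pair plates by the labels; with the number as a replicate block, irradiation called 33 genes, B2m, Cartpt and Hoxa5 among them. Residuals of same-numbered plates correlated at 0.173, 0.12 and 0.0326. Irradiated replicates 1 and 2 correlated best with their own number, while for replicate 3 the value hardly differed from that with homeostasis replicate 2 (0.0309), a hint from the data and not from the design.

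Leaving out 1 plate at a time gave 135 to 207 genes higher than in Tac1/Penk wells and 398 to 547 lower than in Nos1 wells. The 207 and the 398 came without irradiated replicate 1, where 4010 genes were tested against 6787 in the main fit. For irradiation the range was 1 to 19 genes, for the interaction 1 to 6, and for the share difference −10.1 to 0.627 points. Over 501 results for single genes, 5938 of 6574 values kept direction and side of the threshold, 602 lost the call, 31 gained it and 3 reversed: Jund against all other wells (−0.12) and Hoxb5 against Tac1/Penk wells (0.15) with thinned wells, and Resp18 against all other wells (0.22) with the rule on thinned wells. Without 1 plate the calls of Gal, Sox11, Scg3, Ly6h, Cartpt, Prima1, Bglap2, Nefl, Htr3b and Dbh against Tac1/Penk wells were among those lost, and against Nos1 wells those of P2rx2, Cnr1, Scg3, Fos, Egr1, Socs3, Ly6h, Nefl and Atm. Apart from the thinned fits, which test fewer genes and UMIs, the cause was not tested. Irradiation was tested on sums of 11 to 36 wells a plate, and how the number of wells bears on its count was not tested.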

Other observations

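Gene models that were too rare in Calb2 wells to be tested for irradiation differed in where they had any count. Gm10800 had 4, 41 and 9 UMIs in Calb2 wells of the irradiated plates and 0 on each homeostasis plate, at least 22.1-fold higher with 3 UMIs over the group as the floor. Gm10801 had 45 UMIs on the irradiated and 0 on the homeostasis plates, at least 18.4-fold higher, and Gm21738 20 and 0, at least 8.19-fold higher. Most of these UMIs were of irradiated replicate 2 (41, 33 and 16), without which the bounds were 12.02, 11.1 and 3.70. In Tac1/Penk wells Gm10800 was at 730, 54.9 and 21.8 CPM on the irradiated and 5.10, 0 and 0 CPM on the homeostasis plates, and in Nos1 wells at 17.1, 104 and 86.8 against 0, 4.66 and 2.94 CPM. These genes were chosen after their values were seen, and the split of reads among such gene models is uncertain.

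The gene Ctcfl had 100 UMIs in Calb2 wells of homeostasis replicate 2, all in 1 well, and 0 to 6 UMIs in Calb2 wells of each of the other 5 plates.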
